A study of Mus musculus with 5 samples.

Results

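Bhlhe40 and 9 regulators of the circadian clock were followed in Langerhans cells of Suz12 knockout and wild type mice. The 10 genes are Bhlhe40, its paralog Bhlhe41, Nfil3, Dbp, Per1, Per2, Nr1d1, Nr1d2, Arntl (also called Bmal1) and Clock, out of 27179 genes in the deposited count table. Bhlhe40 was picked from these same data, because its counts in the 3 knockout libraries lie above those of both wild type libraries and the wild type libraries are close to each other. The other 9 genes were taken as its paralog and as the clock factors it acts with. Langerhans cells are the resident phagocytes of the epidermis, and here they were purified from the skin of 1-week-old C57BL/6 mice. In 3 libraries, each a separate biological replicate, the mice were Suz12 cKO, meaning that Suz12 was knocked out conditionally, and in 2 libraries they were wild type. SUZ12 belongs to the core of Polycomb repressive complex 2 (PRC2), the enzyme complex that methylates lysine 27 of histone H3. Neither the Cre driver of the knockout nor the time of day of sampling is given in the sources used here.

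The mammalian clock is a feedback loop of transcription. CLOCK and ARNTL bind E-boxes together and switch on their own repressors, among them the Period genes, the nuclear receptor genes Nr1d1 and Nr1d2 (REV-ERB alpha and beta), and Bhlhe40 and Bhlhe41, whose products compete for E-boxes. NR1D1 and NR1D2 repress Arntl, and they also repress Nfil3, whose protein occupies the same D-box sites as the activator DBP with the opposite effect. Outside the clock, Bhlhe40 is known in macrophages and T cells as a regulator of cytokine genes and of proliferation, and Nfil3 is known for its part in the development of innate lymphoid and dendritic cells.

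Each library was made from 5000 cells, and the counts assigned to genes came to between 12090062 and 25725900 per library. Levels are given as CPM, the count scaled to 1e+06 counts per library after TMM normalisation. Where a gene had no count, a level of up to 0.106 CPM in the deepest library and 0.258 CPM in the shallowest cannot be told from 0 (3 counts). Reads were amplified and carry no molecular identifiers, so these floors and all intervals on counts cover counting error only. Suz12 had 0, 0 and 7 counts in cKO replicates 1 to 3, against 88 and 39 counts in wild type replicates 1 and 2. The 12 markers of Langerhans cells chosen for the check, Cd207 and Epcam among them, were counted in all 5 libraries. Cd207 lay at 6639 to 14596.5 CPM in cKO, against 7584 and 7417 CPM in wild type. Epcam lay at 1042 to 1634 CPM in cKO, against 1337 and 1278 CPM in wild type. Others of the 12 were low, such as Itgam and Runx3, with means of 27.0 and 28.2 CPM in cKO. The source label names alveolar macrophages. Of 9 alveolar macrophage markers, Siglecf, Car4, Chil3 and Fabp1 had no count in any library, while Ear1, Ear2, Krt79 and Plet1 were counted in all 5. Marco had 0 counts in every cKO library, against 864 in wild type replicate 1 and 2 in wild type replicate 2. Ear2 lay at 63.8 to 250.4 CPM in cKO, against 466 and 122 CPM in wild type. Krt79 lay at 98.2 to 177 CPM in cKO, against 176 and 91.3 CPM in wild type, and Plet1 at 55.2 to 171 CPM in cKO, against 110.1 and 46.5 CPM in wild type.

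The promoters of 3 of the factors are shown because they cover the range of levels found here: Nfil3 was abundant in all libraries, Per1 was low but always counted, and Bhlhe41 was nearly absent. The windows run from 250 bases before to 50 after the start of a RefSeq transcript (assembly GRCm38.p6, the build of mm10), and each is written 5′ to 3′ on the strand of the gene. Capitals mark matches to the clock motifs searched on both strands: the E-box CACGTG, the related CACGTT, the D-box forms TTATGTAA and TTACGTAA, the receptor half-site AGGTCA, and the cyclic AMP response element TGACGTCA.
Nfil3, chr13:52980990-52981289, minus strand: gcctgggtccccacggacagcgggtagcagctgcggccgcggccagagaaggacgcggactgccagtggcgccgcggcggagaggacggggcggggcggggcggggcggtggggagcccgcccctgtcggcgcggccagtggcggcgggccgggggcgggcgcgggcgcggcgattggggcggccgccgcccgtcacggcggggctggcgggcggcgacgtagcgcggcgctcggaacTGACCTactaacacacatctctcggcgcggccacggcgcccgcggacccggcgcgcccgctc
Per1, chr11:69098699-69098998, plus strand: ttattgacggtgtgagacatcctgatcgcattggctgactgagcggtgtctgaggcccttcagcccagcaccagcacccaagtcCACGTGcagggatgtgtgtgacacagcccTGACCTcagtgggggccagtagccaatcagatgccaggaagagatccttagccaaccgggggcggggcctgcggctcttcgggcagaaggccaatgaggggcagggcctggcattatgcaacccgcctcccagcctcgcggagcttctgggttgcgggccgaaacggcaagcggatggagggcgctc
Bhlhe41, chr6:145865371-145865670, minus strand: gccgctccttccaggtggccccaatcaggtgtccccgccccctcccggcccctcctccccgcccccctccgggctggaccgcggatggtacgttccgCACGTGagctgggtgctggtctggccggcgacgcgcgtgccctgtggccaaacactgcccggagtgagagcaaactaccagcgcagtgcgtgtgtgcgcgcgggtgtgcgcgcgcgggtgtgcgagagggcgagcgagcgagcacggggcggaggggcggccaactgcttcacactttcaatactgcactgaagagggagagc
The table of promoters held 12 windows for 8 of the 10 genes, and none for Bhlhe40 and Per2. An E-box was found in the Bhlhe41 window and in 1 of 2 Per1 windows, against 7.15% of all 32851 windows in the table. The variant CACGTT, read on its opposite strand, was found in the Nr1d1 window (4.68% of all windows). The half-site AGGTCA was found in 5 of the 12 windows, those of Nfil3 and Nr1d2 and 1 each of Per1, Arntl and Clock. It was found in 16.3% of all windows. Neither D-box form (1.06% of all windows) nor the cyclic AMP response element (1.79%) was found in the 12 windows, and no matches overlapped each other. These are matches of letters within the windows and say nothing of occupancy.

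Of the 10 factors, Nfil3 and Bhlhe40 were the abundant ones. On the scale of CPM per kilobase of gene length, which allows levels of different genes to be compared, Nfil3 had a level of 122 ± 27.4 and Bhlhe40 one of 72.5 ± 37.8 (mean and SD over all 5 libraries). They held ranks 1011 and 1443 among 13470 genes with a count. Together they made up 94.7% to 98.8% of the summed level of the 10 genes per kilobase in each library. Nfil3 lay above Bhlhe40 in 4 of 5 libraries, the exception being cKO replicate 1, so their ranges overlapped. Per1, a Period gene, came next with a level of 3.38 ± 1.36 CPM per kilobase, and its range was separate from that of Bhlhe40. Arntl at 1.27 ± 2.12, Clock at 1.16 ± 1.49 and Nr1d2 at 0.546 ± 0.891 CPM per kilobase had SDs larger than their means, and no neighbours in the order from Per1 downward had separate ranges. Dbp, Per2, Bhlhe41 and Nr1d1 averaged 0.211, 0.0971, 0.0969 and 0.0808 CPM per kilobase and were each counted in 1 library alone. Only Bhlhe40, Nfil3 and Per1 of the 10 genes had counts in all 5 libraries.

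**Figure D1:**
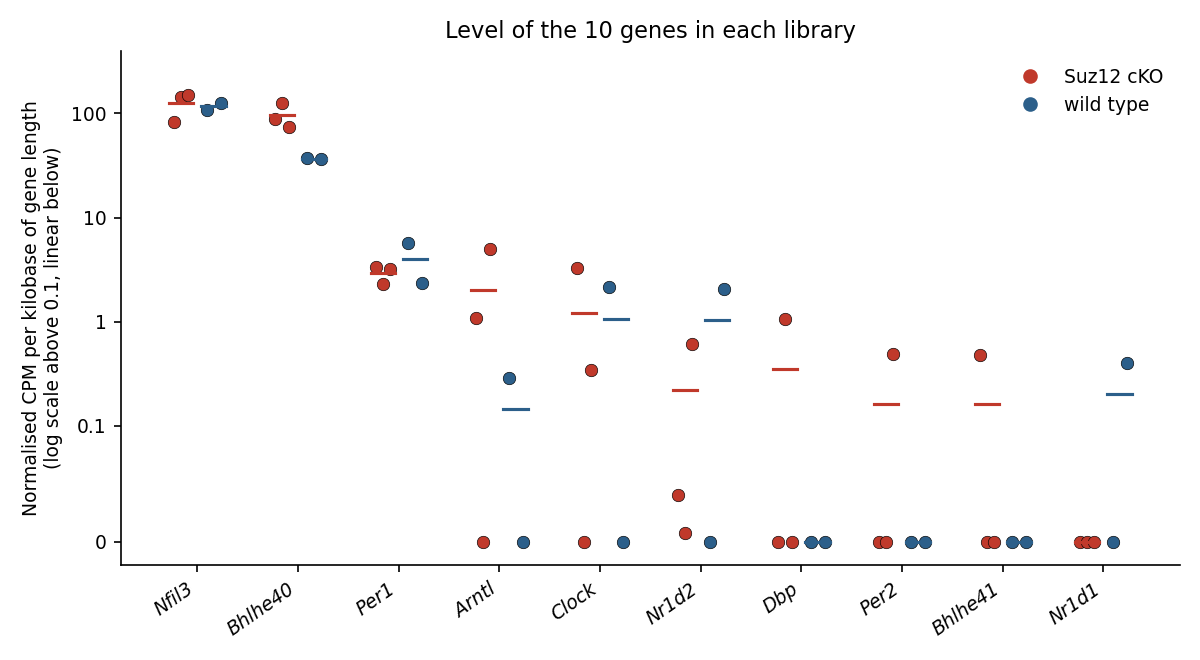
Level of each of the 10 factors in every library, in normalised CPM per kilobase of gene length (log scale above 0.1, linear below), with cKO points and their mean line on the left and wild type on the right of each gene. Nfil3 and Bhlhe40 lie far above the other 8 genes, and 7 of the 10 genes have no count in at least 1 library.

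Bhlhe40 (chromosome 6, 108660629 to 108666925, plus strand, mm10) encodes a basic helix-loop-helix repressor also called DEC1. It had 4432, 11099 and 2679 counts in cKO replicates 1 to 3, and 2187 and 1913 counts in wild type replicates 1 and 2. After normalisation its level was 277, 393 and 230.0 CPM in cKO, against 116 and 113 CPM in the wild type libraries. The lowest cKO library, replicate 3, was thus well above both wild type libraries, and the cKO libraries differed more among themselves than the wild type pair did. The group means were 300.1 ± 83.8 CPM in cKO and 114 ± 2.10 CPM in wild type (SD, n = 3 and n = 2), a ratio of 2.63. The fit gave a log2 fold change of 1.39 (standard error 0.36). Because this difference was the reason for choosing the gene, it is given without a test. With 1 library left out it was between 1.15, without cKO replicate 2, and 1.56, without cKO replicate 3, and its sign is fixed by the choice of the gene. The antisense gene 0610040F04Rik overlaps Bhlhe40 over 306 bases of their whole spans, introns included. Without a stated strand setting, its reads in any shared exons cannot be told apart from those of Bhlhe40. In bulk RNA a difference in the share of expressing cells and a difference in RNA per cell cannot be told apart.

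The pattern that picked Bhlhe40 was common in these libraries. For 886 of 9988 tested genes, or 8.87%, every cKO library exceeded both wild type libraries. Among 1062 tested genes with a mean within 2-fold of that of Bhlhe40, the same held for 100, or 9.42%. The wild type libraries were closer for Bhlhe40 than for most genes of its level, with an absolute log2 ratio of 0.04 against a median of 0.37 over those genes. This closeness was part of how the gene was chosen. Both conditions were met by 11 of the 1062 genes, Bhlhe40 included: separate groups on the higher side, and a wild type ratio no larger than that of Bhlhe40. The ratio of Bhlhe40 itself set the second condition, so this count describes the choice and is no test.

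The sample titles come in 2 styles, and what these mark is not stated. Among titles with the short form, Bhlhe40 had 277 and 393 CPM in cKO replicates 1 and 2 and 116 CPM in wild type replicate 1. Among titles with the long form it had 230.0 CPM in cKO replicate 3 and 113 CPM in wild type replicate 2. The order within each style follows from how the gene was chosen. With the style as a term in the fit its log2 fold change was 1.31.

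For 2 sets of markers of other cells, the sums were also higher in every cKO library. The 12 keratinocyte markers summed to 806 to 1148 CPM in the cKO libraries and to 329 to 780.1 CPM in wild type, and 5 of their 11 tested genes had every cKO library above both wild type libraries, against 8.87% of all tested genes. No keratinocyte marker was at 0 in all libraries. The 12 neutrophil and mast cell markers summed to 240 to 542 CPM in cKO and to 170.4 to 187 CPM in wild type, nearly all of it from Mmp9, while S100a9, Retnlg, Cpa3, Tpsb2, Cma1 and Mcpt4 had no count in any library. Both sums were highest in cKO replicate 2, the library with the most Bhlhe40. The keratinocyte sum was 1031 CPM in cKO replicate 3 and 806 CPM in replicate 1, and the other sum 258 and 240 CPM. Bhlhe40 had the reverse order there, with 230.0 CPM in replicate 3 and 277 CPM in replicate 1. The part of these markers in the Bhlhe40 difference was not tested. Summed markers of T cells, at 241 to 696 CPM in cKO and 461 to 555 CPM in wild type, overlapped between the groups. So did those of melanocytes, at 33.1 to 145 CPM in cKO and 39.6 to 429 CPM in wild type, and those of fibroblasts and endothelium, at 9.76 to 211 CPM in cKO and 21.2 to 109 CPM in wild type. The alveolar macrophage markers summed to 245 to 429 CPM in cKO and to 263 to 807 CPM in wild type.

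Bhlhe40, Nfil3 and Per1 are also induced by acute stimuli in many cells, so 18 immediate early and dissociation response genes, such as Fos, Dusp1 and Hspa1a, were read alongside. Their sum was 4400.0, 9356 and 5904 CPM in cKO replicates 1 to 3, and 6734 and 5148 CPM in wild type replicates 1 and 2. The highest sum was in cKO replicate 2 and the lowest in cKO replicate 1, so the groups overlapped. Of the 18 genes, all tested, 13 had log2 fold changes above 0 and 5 below, with a median of 0.20 (0.06 over all tested genes). Of these genes edgeR called 0, with 0 at an unadjusted p under 0.05 and 0 with DESeq2, and the groups separated for 0 in either direction. Over all tested genes the shares were 0% with edgeR, 4.15% at the unadjusted p, 1.91% with DESeq2 and 19.0% with separate groups.

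**Figure D2:**
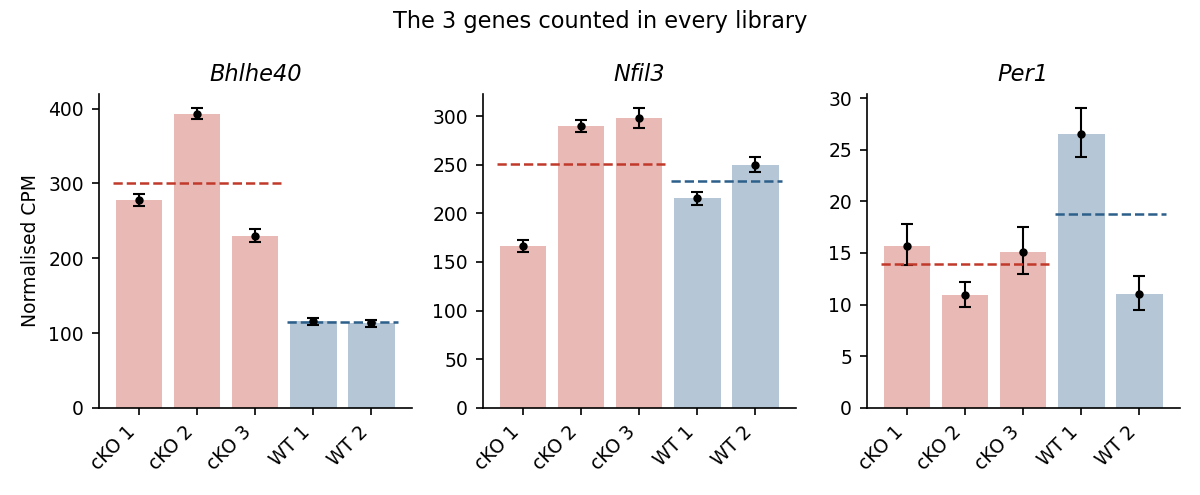
Normalised CPM of Bhlhe40, Nfil3 and Per1 in each library, with exact Poisson 95% intervals of the counts as error bars and dashed lines at the group means. For Bhlhe40 all 3 cKO libraries stand above both wild type libraries, whereas the groups overlap for Nfil3 and Per1.

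Nfil3 encodes a bZIP repressor that competes with DBP for D-boxes (chromosome 13, 52967209 to 52982878, minus strand). Its level was 166, 289.8 and 298 CPM in cKO replicates 1 to 3, and 215 and 250.2 CPM in wild type replicates 1 and 2. The wild type values fell inside the range of the cKO values. The means were 251 ± 73.8 CPM in cKO and 233 ± 24.6 CPM in wild type (SD, n = 3 and n = 2). Nfil3 had a log2 fold change of 0.11 (standard error 0.36, edgeR adjusted p = 0.999), which turned to -0.0062 without cKO replicate 2 and to -0.015 without cKO replicate 3. Across the libraries Nfil3 varied less than most genes of its level, with its highest library 1.79 times its lowest, against a median of 2.23 over the 1005 tested genes within 2-fold of its mean.

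Within a library the ratio of Bhlhe40 to Nfil3 does not depend on how libraries are scaled. Per kilobase it was 1.07, 0.868 and 0.494 in cKO replicates 1 to 3, and 0.344 and 0.288 in wild type replicates 1 and 2. All cKO ratios exceeded both wild type ratios. This ratio was added after the values were seen, contains the difference by which Bhlhe40 was chosen, and carries no test.

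Bhlhe41, the paralog DEC2 that shares the E-box target of Bhlhe40, was close to absent (chromosome 6, 145858243 to 145865420, minus strand). It had 11 counts in cKO replicate 1, or 0.688 CPM (95% exact Poisson interval 0.344 to 1.23), and 0 counts in the other 2 cKO libraries and in both wild type libraries. In cKO replicate 1 Bhlhe40 exceeded it 184-fold per kilobase. Dbp, the PAR bZIP activator opposed by Nfil3, had 50 counts in cKO replicate 2, or 1.77 CPM (1.31 to 2.33), and 0 in every other library, where Nfil3 was abundant. In cKO replicate 2 Nfil3 exceeded Dbp 138-fold per kilobase. Bhlhe41 and Dbp did not have enough counts to be tested. A low Dbp value may hold reads of Sphk2, whose span overlaps that of Dbp on the opposite strand over 737 bases.

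Among the Period genes, whose proteins repress CLOCK and ARNTL, Per1 was the one measured throughout (chromosome 11, 69095108 to 69109965, plus strand). It had 251, 309 and 176 counts in cKO replicates 1 to 3, and 502 and 187 counts in wild type replicates 1 and 2. These were 15.7, 10.9 and 15.1 CPM in cKO, against 26.6 and 11.0 CPM in wild type. Wild type replicate 1 was the highest, and wild type replicate 2 lay among the cKO libraries. Per1 had a log2 fold change of -0.43 (standard error 1.36, edgeR adjusted p = 0.999), and without wild type replicate 1 it was 0.34. Among the 3358 tested genes within 2-fold of the Per1 mean, 58.5% had counts in all 5 libraries, as Per1 did. Per2 had 33 counts in cKO replicate 3, or 2.83 CPM (1.95 to 3.98), and none elsewhere, and it was not tested. In cKO replicate 3 Per1 exceeded Per2 6.62-fold per kilobase.

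The genes for the REV-ERB receptors, which repress Arntl and Nfil3, were scarce in both genotypes. Nr1d1 (chromosome 11, 98767932 to 98775377, minus strand) had 0 counts in all 3 cKO libraries and in wild type replicate 1, and 18 counts in wild type replicate 2, or 1.06 CPM (0.629 to 1.68). Its span overlaps that of Thra on the opposite strand over 1075 bases. Nr1d2 (chromosome 14, 18204056 to 18239106, minus strand) had 3, 1 and 33 counts in cKO replicates 1 to 3, and 0 and 163 counts in wild type replicates 1 and 2. Both receptor genes thus had their highest count in wild type replicate 2, at a ratio of Nr1d2 to Nr1d1 of 5.13 per kilobase. Nr1d2 had a log2 fold change of -2.24 (standard error 3.14, edgeR adjusted p = 0.999), and without wild type replicate 2 it was 7.24, with 0 counts left in wild type.

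The activators Arntl and Clock, whose products work as a pair, were each counted in 3 of 5 libraries, the same 3 for both genes. Arntl (chromosome 7, 113178471 to 113314126, plus strand) had 50, 0 and 169 counts in cKO replicates 1 to 3, and 16 and 0 counts in wild type replicates 1 and 2. Clock (chromosome 5, 76209868 to 76305603, minus strand) had 393, 0 and 30 counts in the same cKO libraries, and 303 and 0 counts in wild type. Neither gene had a count in cKO replicate 2, the deepest library, or in wild type replicate 2. In CPM, Arntl reached 14.5 in cKO replicate 3 and Clock 24.6 in cKO replicate 1, so the 2 genes peaked in different libraries. The log2 fold changes were 3.77 with a standard error of 3.91 for Arntl and 0.18 with a standard error of 3.36 for Clock (edgeR adjusted p = 0.999 for both). That of Clock was -2.64 without cKO replicate 1 and -0.85 without wild type replicate 2. All wild type counts of both genes came from replicate 1, and leaving it out gave fitted values of 9.74 for Arntl and 10.37 for Clock, which are no measured folds. The spans of antisense genes overlap both, Gm45355 over 2394 bases of Arntl and Gm7467 over 652 bases of Clock. Their reads in any shared exons cannot be told apart either. On the same strand, the span of Gm43658 overlaps that of Clock over 4176 bases, and that of the pseudogene Ube2n-ps1 over 459 bases. Whether exons are shared was not examined, so the Clock counts may be uncertain with any strand setting.

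Such gaps were the rule at these levels. Of 2398 tested genes whose mean lay between those of Nr1d2 and Clock, 2.53 to 8.64 CPM, 78.4% had no count in at least 1 library. The ratio of Arntl to Nr1d1, which run in opposite phase in a cycling clock, could not be given in any library, because no library had 3 counts of both. The counts therefore did not allow the phase to be read. Because the time of day of sampling is not given, the presence of a rhythm could not be read at any depth of counts.

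Over the genotype comparison, the 5 tested factors other than Bhlhe40 had 3 log2 fold changes above 0 and 2 below, with a median of 0.11. Over all 9988 tested genes 5246 lay above and 4742 below 0, with a median of 0.06. edgeR called 0 of the 5 at an adjusted p of 0.05, and also 0 at an unadjusted p of 0.05, and DESeq2 and limma-voom called 0 of them. The targeted gene Suz12 was not called by edgeR either, at a log2 fold change of -4.11 (standard error 2.87, edgeR adjusted p = 0.999). A lack of calls is therefore no sign that levels were equal. Over all genes edgeR called 0 (0%), with 415 genes (4.15%) at an unadjusted p under 0.05, while DESeq2 called 191 (1.91%). The groups did not overlap for 0 of the 5 factors, against 1901 of all tested genes (19.0%). The 4 factors that were not tested each had counts in a single library.

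**Figure D3:**
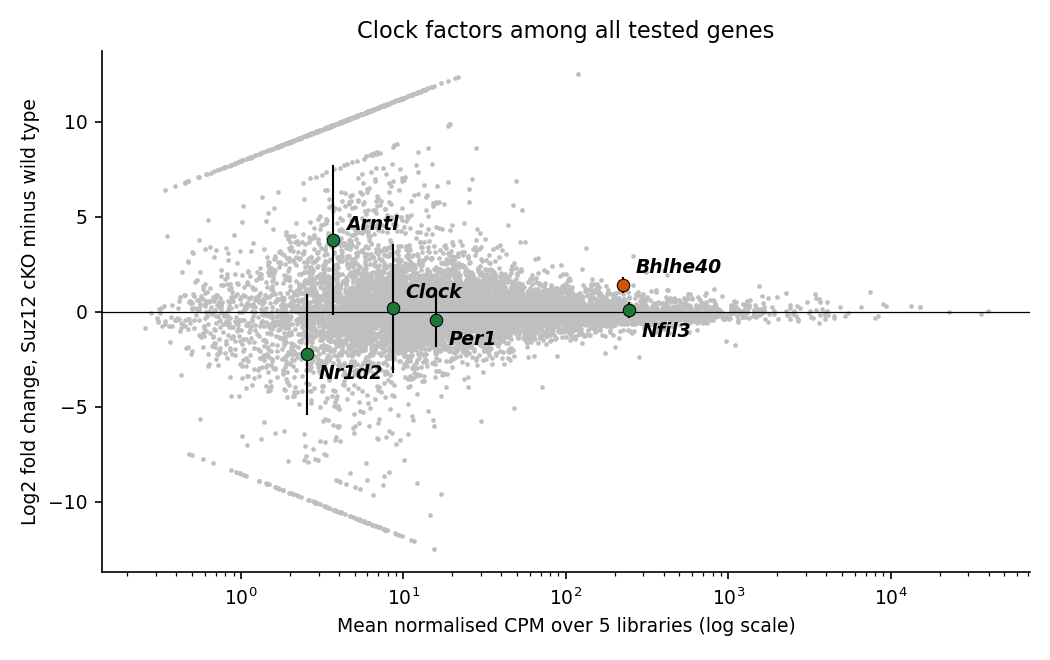
Log2 fold change (cKO minus wild type) against mean normalised CPM over the 5 libraries (log scale) for all 9988 tested genes in grey, with the tested clock factors marked and their standard errors as vertical lines. Bhlhe40 and Nfil3 have short error bars at means of 226 and 244 CPM, Nr1d2, Arntl and Clock have standard errors of 3.14 to 3.91, and the slanted rows of grey points are genes without counts in 1 group.

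The genes whose pattern over the 5 libraries was nearest to that of Bhlhe40 were Mapkapk3, Tgoln1, Pvr, Clptm1l and Ncaph2. Likeness was the root mean square difference between log2(CPM + 1) values centred on each gene's mean over the libraries, among 2669 other tested genes averaging at least 50 CPM. The differences were 0.11, 0.16, 0.18, 0.18 and 0.18 in that order, against a median of 0.89 over the genes compared and 0.73 for Nfil3. Mapkapk3, a kinase downstream of MAP kinases, had 131, 159 and 85.7 CPM in cKO replicates 1 to 3, and 48.9 and 49.3 CPM in wild type replicates 1 and 2. Ncaph2, a subunit of condensin II, lay at 146, 198 and 166 CPM in cKO, against 62.3 and 65.3 CPM in wild type. All of these genes were highest in cKO replicate 2 and have every cKO library above both wild type libraries, as a search for likeness to Bhlhe40 selects. With a minimum mean of 10 CPM, 3 of the 5 were again among the nearest 5.

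**Figure D4:**
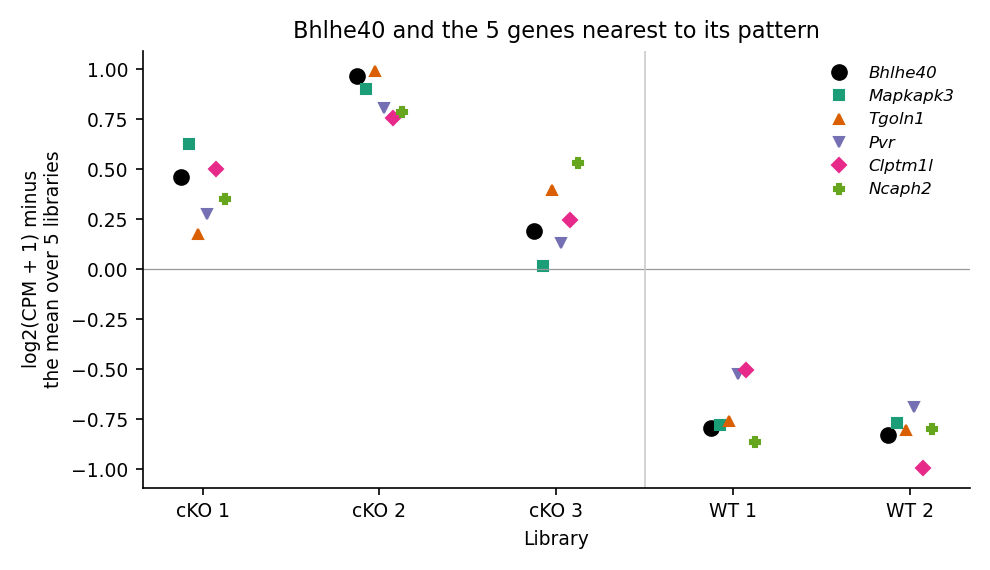
Centred log2(CPM + 1) of Bhlhe40 and of the 5 genes nearest to it, with 1 column per library. All 6 genes lie above 0 in the 3 cKO libraries and below 0 in both wild type libraries, which follows from how they were chosen.

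The rest of the clock loop was as sparse as the rarer factors. Of 10 further loop genes, 5 (Npas2, Arntl2, Per3, Rorb and Hlf) had no count in any library, and none was counted in all 5. Cry1, a repressor that acts with the Period proteins, had 19.1 CPM in cKO replicate 1 and 0 in the other cKO libraries, against 0 and 38.4 CPM in wild type replicates 1 and 2. It had a log2 fold change of -1.59 (standard error 3.57, edgeR adjusted p = 0.999). Rora, a receptor that activates Arntl at the sites used by the REV-ERB proteins, had 208, 1 and 121 counts in cKO replicates 1 to 3 and 0 in both wild type libraries. Rora was not called (edgeR adjusted p = 0.968). Tef, a relative of Dbp, had 284 counts in cKO replicate 2 alone, the library in which Dbp was also counted. Of the 2 loop genes tested, Rora lay above 0 and Cry1 below, and edgeR called 0, with 0 at an unadjusted p under 0.05 (4.15% of all tested genes) and 0 with DESeq2 (1.91%). By the order of values alone, the groups did not overlap for 1 of the 2, Rora, on the higher side (8.87% of all tested genes). That order hung on 1 count of Rora in cKO replicate 2, or 0.035 CPM. With fewer than 3 counts this level cannot be told from the 0 of wild type, so Rora does not show separate groups. Rora could be tested only through its counts in cKO replicates 1 and 3, so its sign above 0 came with its being tested. Cry2, a relative of Cry1, had 60 counts in cKO replicate 1 and 7 in wild type replicate 2, and Ciart, a repressor of CLOCK and ARNTL, had 1 count in wild type replicate 2. Neither had a count elsewhere or was tested.

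Genes for proteins that modify or assist clock factors were better covered. Of 13, 12 were tested and 7 were counted in all 5 libraries. The kinase gene Csnk1d, whose product phosphorylates Period proteins, had 80.5, 101 and 50.8 CPM in cKO replicates 1 to 3, and 76.8 and 97.6 CPM in wild type replicates 1 and 2, so its groups overlapped. The smallest p-values of this list belonged to Ncor1 and Usp2. Ncor1, the corepressor used by the REV-ERB proteins, lay at 30.8, 45.1 and 21.5 CPM in cKO, against 98.8 and 58.0 CPM in wild type, and all cKO values were below both wild type values. It had a log2 fold change of -1.27 (standard error 0.60), and it did not pass over all genes (edgeR adjusted p = 0.968). Usp2, a deubiquitinase gene with clock-driven expression, lay at 25.8, 31.3 and 21.5 CPM in cKO, against 7.46 and 10.7 CPM in wild type. All its cKO values were above both wild type values, with a log2 fold change of 1.53 and a standard error of 1.18 (edgeR adjusted p = 0.999). In the list 5 log2 fold changes lay above 0 and 7 below, with a median of -0.12, and edgeR called 0 of 12, with 0 at an unadjusted p under 0.05 and 0 with DESeq2. Of the 12, the groups did not overlap for 2 on the higher and 2 on the lower side, against 8.87% and 10.2% of all tested genes.

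**Figure D5:**
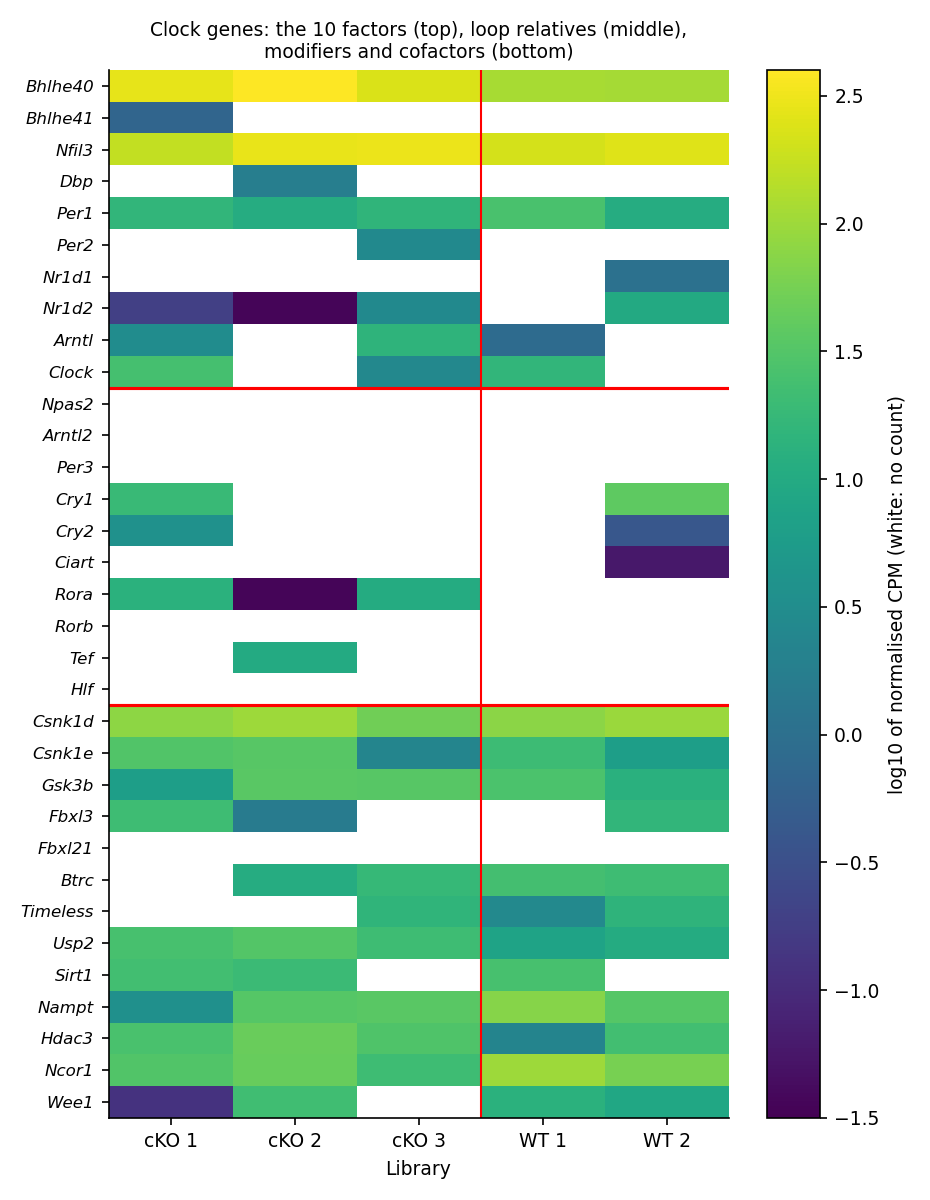
Log10 of normalised CPM for the 10 factors (top), 10 further loop genes (middle) and 13 modifiers and cofactors (bottom) in the 3 cKO libraries on the left and the 2 wild type libraries on the right, with white for no count. Full rows are seen for Bhlhe40, Nfil3 and Per1 and for 7 modifiers, and for none of the further loop genes.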

How the data were processed

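The deposited values are raw counts, in 1 table of all libraries and 1 file per library, with identical values. The submitters' processing notes name featureCounts and mm10. Neither the aligner, the versions, the strand setting nor the handling of shared reads is given in the sources used here. Values of overlapping genes and close paralogs are therefore uncertain. Overlaps between genes were taken over whole gene spans, introns included, and shared exons were not examined. Libraries were SMART-Seq with paired reads of 75 bp, per the design text. Groups follow the sample titles. Entrez identifiers were paired with RefSeq symbols on GRCm38.p6 (25275 of 27179 matched), all 10 factors among them. The deposited length column gave levels per kilobase.

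The fit over all genes used edgeR 4.0.16 in R 4.3.3, with TMM factors, filterByExpr (minimum count 10) and a quasi-likelihood F test of genotype with robust dispersions. Genes were called at a Benjamini-Hochberg adjusted p under 0.05. A positive log2 fold change means higher in cKO, and a standard error is the absolute log2 fold change divided by the square root of F. The p-values weigh the difference between 3 and 2 libraries against a spread within groups that is estimated partly from all tested genes. Alternatives used DESeq2 1.42.0, limma 3.58.1, other scalings, filters and terms, and each library left out. The scripts were tested on simulated counts. The factors, gene lists and tests were chosen with earlier results of these data known. Named genes are the 10 factors, the 2 genes with the smallest p in each clock list, the 5 nearest to Bhlhe40, and Suz12. Csnk1d, Tef and the markers named were chosen after their values were seen. Besides the 10 clock loop genes described, one more gene of that list is not reported here. Figures were drawn with matplotlib 3.10.9.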

Additional observations from a re-analysis of the deposited data

How the results depend on the processing

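None of the 5 tested factors other than Bhlhe40, and none of the tested clock list genes, was called in any of the 14 alternatives. Over all genes edgeR called 0, DESeq2 called 191 (137 higher and 54 lower in cKO), and the fit with a replicate block called 1. Leaving out each library in turn gave 0 calls throughout. Replicate numbers 1 and 2 are shared by the groups, but same-numbered libraries did not deviate together (r across genes -0.03 and -0.02), so the numbers were not taken as pairs. The log2 fold change of Bhlhe40 ranged from 1.15 to 1.56 over the alternatives.

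Arntl kept its sign under every alternative run, and Nfil3, Per1, Nr1d2 and Clock did not. With the replicate block Nfil3 had a log2 fold change of -0.082. Nr1d2 had one of 0.082 with limma-voom and of 0.76 with the title style as a term. With each library left out, the log2 fold changes ranged from -0.015 to 0.35 for Nfil3, from -0.93 to 0.34 for Per1, from -3.23 to 7.24 for Nr1d2, from 1.83 to 9.74 for Arntl and from -2.64 to 10.37 for Clock. Nr1d2 passed neither the stricter filter (minimum count 50) nor the filter without cKO replicate 3. The smallest adjusted p of any factor other than Bhlhe40 over the alternatives was 0.835, for Nr1d2. The number of genes with separate groups stayed within 1.5 times of 1901 under the other scalings and filters. Nr1d2, Arntl and Clock had no count in 1 or 2 libraries and standard errors of 3.14 to 3.91, which limits what can be detected for them.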
